A study of Drosophila melanogaster with 8 samples.

Results

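The genes described here are the angiotensin converting enzyme homologues and 4 of the neprilysins of Drosophila melanogaster, which belong to families of zinc metallopeptidases that cut small peptides outside cells. A gene was a member when its name in the deposited annotation was Ance, Ance-2, Ance-3, Ance-4, Ance-5, Acer, Nep1, Nep2, Nep4 or Nep5, and all 10 names were found among 14865 genes with counts. Poly(A) RNA of whole adult flies was sequenced from 5 control and 3 DHR39 libraries. Per the deposited sample sheet, controls carried the genotype w1118 and mutants the genotype DHR393.48. The labels name no other allele or driver. All mutant libraries shared the same genotype, so the mutation and the background of its stock cannot be told apart. Adults of both groups were 8 days old and were kept on food with 8% yeast and 9% sugar. Hr39, which encodes the nuclear receptor DHR39, is the gene named for the mutant. The labels give neither the lesion of the allele nor the sex or the number of flies per library. The titles of the control libraries mark them as re-used, and where they were first used is not given there. In the sample sheet 3 of them share a replicate name with a DHR39 library. The labels do not say that replicates came from separate cultures, so the spread between libraries may be technical.

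Angiotensin converting enzyme removes dipeptides from the end of short peptides. Ance is a secreted, active homologue of the mammalian enzyme that is made, among other places, in the male accessory gland and in spermatids, and Acer is the other active enzyme of the fly. Ance-2, Ance-3, Ance-4 and Ance-5 lack residues needed for catalysis. Neprilysins, the M13 peptidases, cut peptide hormones and neuropeptides such as tachykinins at internal bonds and so end their signals. In flies they are known from testis, Malpighian tubules, muscle, glia and neurons, and several are needed for fertility or memory.

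In a fit over all 8 libraries that left out the shared replicate names, 4 of the 10 genes fell in DHR39 flies and none rose. Nep1, Ance-3, Ance and Ance-4 were lower, by 0.58 ± 0.11, 1.05 ± 0.21, 0.31 ± 0.09 and 0.53 ± 0.15 on the log2 scale (± SE). Ance-2, Ance-5, Acer, Nep2, Nep4 and Nep5 did not pass the test. A gene is said to have risen or fallen where edgeR's quasi-likelihood test over the whole table gave a Benjamini-Hochberg adjusted p below 0.05. All 10 genes passed the filter on low counts. Over the 13506 genes tested, 10.7% fell, 6.58% rose and 17.3% changed in either direction. The median log2 fold change was -0.32 over the 10 genes and -0.0044 over all genes tested, and 8 of the 10 had a value below 0. None of the 10 rose at an unadjusted p below 0.05 either. With DESeq2 5 of the 10 fell and none rose, where 12.1% of all genes fell and 7.7% rose. With limma voom 4 fell and none rose, where 10.5% fell and 6.93% rose. The CPM of the 4 genes that fell did not overlap between the groups, which held in the lower direction for 13.4% of all genes. In whole animals, fewer cells of a type and less RNA per cell cannot be told apart.

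The 4 calls differed in how far they rested on the processing. Nep1 and Ance-3 passed under all 19 alternatives tried. Ance passed under 11 of 19 and Ance-4 under 10 of 19, and both missed the threshold when library totals alone set the scale, when libraries were compared within named pairs, and when single libraries were left out. With library totals alone 2 of the 10 fell, against 7.7% of all genes, of which 14.8% rose on that scale. Without control replicates 1 and 2, again 2 of the 10 fell and none rose, against 8.75% and 5.58% of all genes. With the named pairs as a block, 3 of the 10 fell and 1 rose, against 11.2% and 7.9% of all genes. In that fit Nep1, Ance-3 and Nep5 were lower and Ance-5 was higher.

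**Figure D1:**
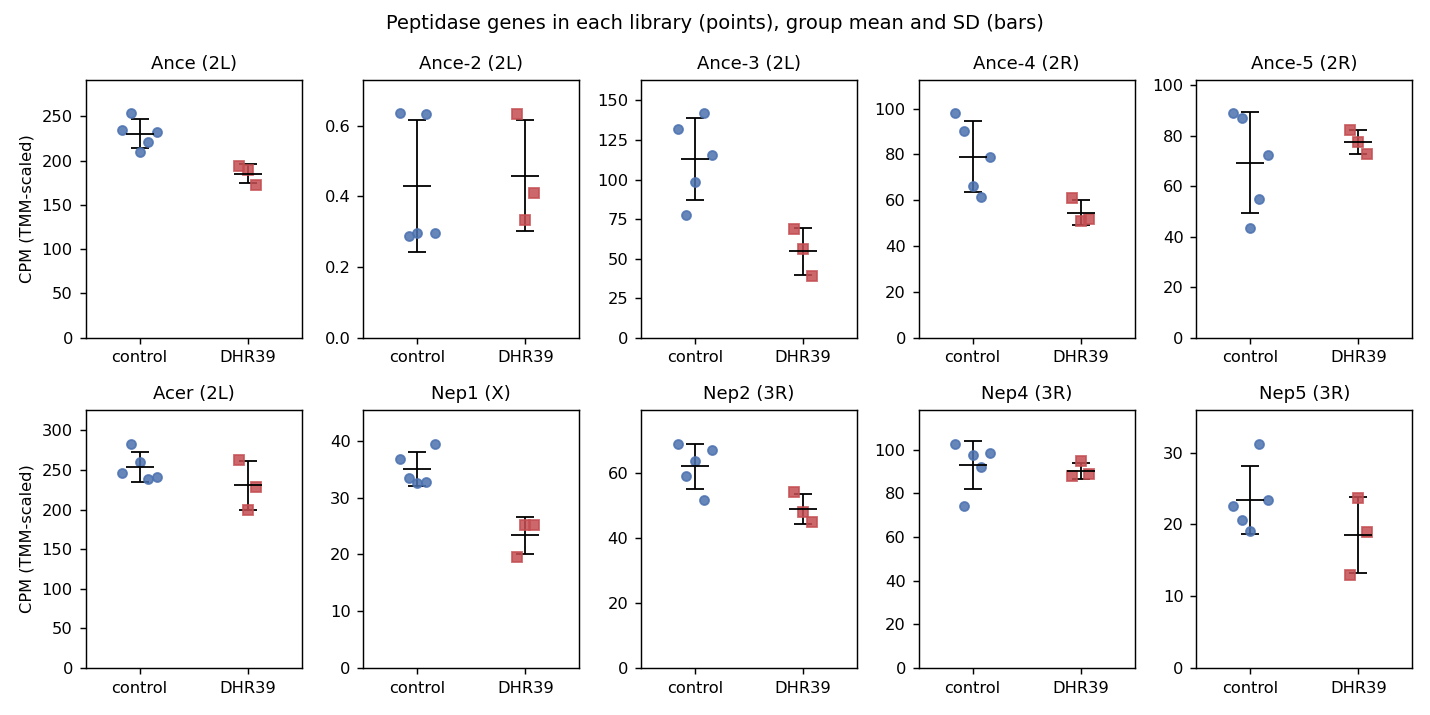
Read counts of each gene as CPM on TMM-scaled library sizes in the 5 control libraries (circles) and the 3 DHR39 libraries (squares), each on a linear axis from 0, with chromosome arms in brackets; horizontal bars mark the group mean and vertical bars its SD. The groups do not overlap for Ance, Ance-3, Ance-4 and Nep1, and overlap for the other 6 genes.

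CPM is a gene's reads as a share of the scaled library total, and levels are compared between genes as CPM per kilobase of exon. In controls the order was Ance at 105.5 ± 7.51 CPM per kilobase (SD, n = 5), Acer at 79.3 ± 5.80, Ance-4 at 39.4 ± 7.70, Ance-3 at 33.0 ± 7.54 and Ance-5 at 32.8 ± 9.41. Below them came Nep4 at 23.1 ± 2.76 CPM per kilobase, Nep2 at 19.8 ± 2.23, Nep1 at 7.31 ± 0.634, Nep5 at 5.94 ± 1.19 and Ance-2 at 0.194 ± 0.0839. The catalytically active enzymes Ance and Acer thus held the highest levels. Every control library had Ance above Acer, Acer above Ance-4, Nep2 above Nep1 and Nep5 above Ance-2. The other neighbours in this order overlapped between libraries. Per kilobase of coding sequence alone, Acer, at 134 ± 9.82, stood above Ance, at 125 ± 8.89, and Ance-3 above Ance-4, so those orders depend on the length used. Ance-2 apart, the genes were covered by between 226 reads (Nep5) and 4938 reads (Acer) in a library.

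In DHR39 libraries Ance and Acer were again first and second, though their ranges of 79.1 to 88.7 and 62.5 to 82.1 CPM per kilobase overlapped. Ance-3 moved from the fourth to the sixth place, at 15.96 ± 4.30 CPM per kilobase (SD, n = 3). Ance-5 moved from the fifth to the third, at 36.7 ± 2.23 CPM per kilobase, with Ance-4 after it at 27.2 ± 2.80. Neighbours among Ance-4, Ance-3 and Ance-5 overlapped in controls, and Ance-5 did not pass the test. Its new place alone therefore does not show a change in Ance-5, which the fit within named pairs called higher, as given below.

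Ance (FBgn0012037), on the plus strand of 2L at 13905645 to 13909212 of the BDGP6 assembly, was measured at 234, 253, 209, 222 and 233 CPM in the controls. The DHR39 libraries had 194, 190.1 and 173 CPM of Ance. All 3 lay below the lowest control. The mean was 230.4 ± 16.4 CPM in controls and 185 ± 11.1 CPM in DHR39, so Ance fell by 19.5%, or 0.31 ± 0.09 on the log2 scale (95% interval -0.50 to -0.12, edgeR adjusted p = 0.0287). With the named pairs as a block the log2 fold change was -0.26 and the edgeR adjusted p was 0.0723, so the call was lost. Leaving out 1 library also ended it for control replicate 1 (edgeR adjusted p = 0.0576), control replicate 5 (0.0640), DHR39 replicate 2 (0.0672) and DHR39 replicate 3 (0.153), in a range of 0.00707 to 0.189 over all alternatives.

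Acer (FBgn0016122), on the plus strand of 2L at 8521933 to 8525740, is known from the embryonic heart and from the control of night sleep. It stood at 246, 283, 260, 238 and 241 CPM in controls and at 262, 200.0 and 229 CPM in DHR39. The groups overlapped, and the difference of -0.14 ± 0.10 on the log2 scale did not pass (95% interval -0.36 to 0.09, edgeR adjusted p = 0.438). That interval includes a change of the size found for Ance. On the opposite strand, lmgA and lmgB share 742 bases with the exons of Acer, or 23.2% of its exon length; counting by strand is not stated, so reads there could belong to either.

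Ance-3 (FBgn0032536), at 13914725 to 13956188 on the plus strand of 2L, had the largest log2 difference of the 10 genes, and it encodes a homologue without the full active site. Controls had 132, 77.8, 98.1, 142 and 116 CPM of Ance-3. The DHR39 libraries had 68.6, 56.2 and 39.2 CPM. Every DHR39 library was below every control, although control replicate 2 and DHR39 replicate 1 were 9.23 CPM apart. The means were 113 ± 25.8 and 54.7 ± 14.7 CPM, a ratio of 0.483 and a log2 fold change of -1.05 ± 0.21 (95% interval -1.51 to -0.59, edgeR adjusted p = 0.00453). Over the alternatives the log2 fold change ran from -1.24 to -0.86 and the edgeR, DESeq2 or voom adjusted p from 4.64e-06 to 0.0231.

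Ance-4 (FBgn0033366), on the minus strand of 2R at 9039728 to 9042142, is another homologue without the full active site. Its controls were at 97.9, 90.4, 66.2, 61.6 and 79.0 CPM and its DHR39 libraries at 61.1, 51.0 and 51.7 CPM. The groups did not overlap, but the highest DHR39 library and the lowest control were 0.489 CPM apart. Ance-4 fell by 0.53 ± 0.15 on the log2 scale, with means of 79.0 ± 15.5 and 54.6 ± 5.61 CPM (edgeR adjusted p = 0.0304). Control replicates 1 and 2, which share no replicate name with a DHR39 library, were the 2 highest. Without both of them the log2 fold change was -0.34 (edgeR adjusted p = 0.113), and with the pairs as a block it was -0.33 (0.0519). The call also ended without control replicate 1 (edgeR adjusted p = 0.0580), control replicate 2 (0.0603), control replicate 5 (0.0563), DHR39 replicate 2 (0.114) or DHR39 replicate 3 (0.118), and the range over all alternatives was 0.00608 to 0.118.

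Ance-5 (FBgn0035076), on the minus strand of 2R at 24888628 to 24891023, also lacks the full active site. Apart from Ance-2 it spread most in controls, with a coefficient of variation of 28.7%. It had 88.9, 87.2, 43.4, 55.0 and 72.3 CPM in controls, and 82.3, 77.5 and 72.9 CPM in DHR39. All DHR39 libraries lay inside the range of the controls, and the log2 fold change of 0.16 ± 0.20 did not pass (edgeR adjusted p = 0.677, from 69.3 ± 19.9 to 77.6 ± 4.72 CPM). As with Ance-4, control replicates 1 and 2 were the highest. Against the controls of the same name, Ance-5 was higher in 3 of 3 pairs, and the fit with the pairs as a block called it higher (log2 fold change 0.47 ± 0.14, edgeR adjusted p = 0.0474). With that fit 7.9% of all genes rose.

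Ance-2 (FBgn0032535) begins 120 bases after the end of Ance on the same strand, at 13909333 to 13911719 of 2L. It was barely detected in whole flies, at 11, 5, 5, 12 and 5 reads in controls and 11, 7 and 7 reads in DHR39. A count of 3 corresponded to between 0.142 and 0.178 CPM. In CPM the groups were at 0.430 ± 0.187 and 0.459 ± 0.156 and overlapped fully. The log2 fold change of 0.07 ± 0.47 had a 95% interval from -0.95 to 1.09 (edgeR adjusted p = 0.949), which holds changes in either direction as large as that of Ance-4, so none of that size was detectable at this depth.

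Among Nep1, Nep2, Nep4 and Nep5, the gene Nep1 (FBgn0029843), on the plus strand of X at 6091205 to 6103971, was the only 1 that fell. It encodes a neprilysin with a part in memory, together with others of the family. Controls had 36.9, 33.5, 32.6, 32.8 and 39.5 CPM, and DHR39 libraries 19.6, 25.2 and 25.3 CPM. A gap of 7.30 CPM lay between the lowest control and the highest DHR39 library. Nep1 fell from 35.1 ± 3.04 to 23.4 ± 3.23 CPM, to 0.667 of the control level, with a log2 fold change of -0.58 ± 0.11 (95% interval -0.84 to -0.33, edgeR adjusted p = 0.00399). Over the alternatives the log2 fold change stayed between -0.64 and -0.44, and the adjusted p between 0.0001 and 0.0174. Mipp2, on the opposite strand, shares 267 bases with Nep1 exons, 5.57% of their length, and did not pass the test at 5.39 ± 1.63 CPM (controls) and 6.03 ± 0.870 CPM (DHR39).

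Nep2 (FBgn0027570), on the minus strand of 3R at 4719458 to 4731878, encodes a secreted neprilysin of testis cyst cells and Malpighian tubules. The controls were at 69.1, 59.0, 63.7, 51.6 and 67.1 CPM and the DHR39 libraries at 54.1, 48.01 and 44.9 CPM. Only control replicate 4 lay within the range of the DHR39 libraries. The log2 fold change was -0.34 ± 0.11 (95% interval -0.59 to -0.10), which just missed the threshold in edgeR (adjusted p = 0.0562) and passed it in DESeq2 (-0.34, adjusted p = 0.0329) and in the robust edgeR fit (0.0495). Without control replicate 4 it was -0.40 (edgeR adjusted p = 0.0255) and without DHR39 replicate 1 it was -0.42 (0.0457); the highest adjusted p over the alternatives was 0.221.

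Nep4 (FBgn0038818), on the minus strand of 3R at 20652567 to 20659904, is made in muscle, glia and testis. Nep4 stood at 103, 74.3, 97.3, 92.0 and 98.4 CPM in controls and at 87.7, 94.6 and 88.8 CPM in DHR39. Its DHR39 libraries all lay among the controls, and only control replicate 2 was low. The log2 fold change was -0.04 ± 0.11 (95% interval -0.27 to 0.19, edgeR adjusted p = 0.858). Its sign turned to 0.10 with library totals alone and to 0.05 with the 50 most abundant genes left out of the totals.

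Nep5 (FBgn0039478), on the minus strand of 3R at 27057908 to 27064199, had the lowest level per length of these 4 neprilysins. Controls had 22.6, 20.7, 19.1, 31.3 and 23.4 CPM, and DHR39 libraries 13.01, 23.7 and 18.9 CPM. The groups overlapped, and the log2 fold change of -0.34 ± 0.20 did not pass (95% interval -0.76 to 0.09, edgeR adjusted p = 0.303). Within named pairs Nep5 was lower in 3 of 3, and the block fit called it lower (-0.42 ± 0.11, edgeR adjusted p = 0.0227). RYa-R, a neuropeptide receptor gene on the opposite strand, shares 28 bases with the exons of Nep5.

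**Figure D2:**
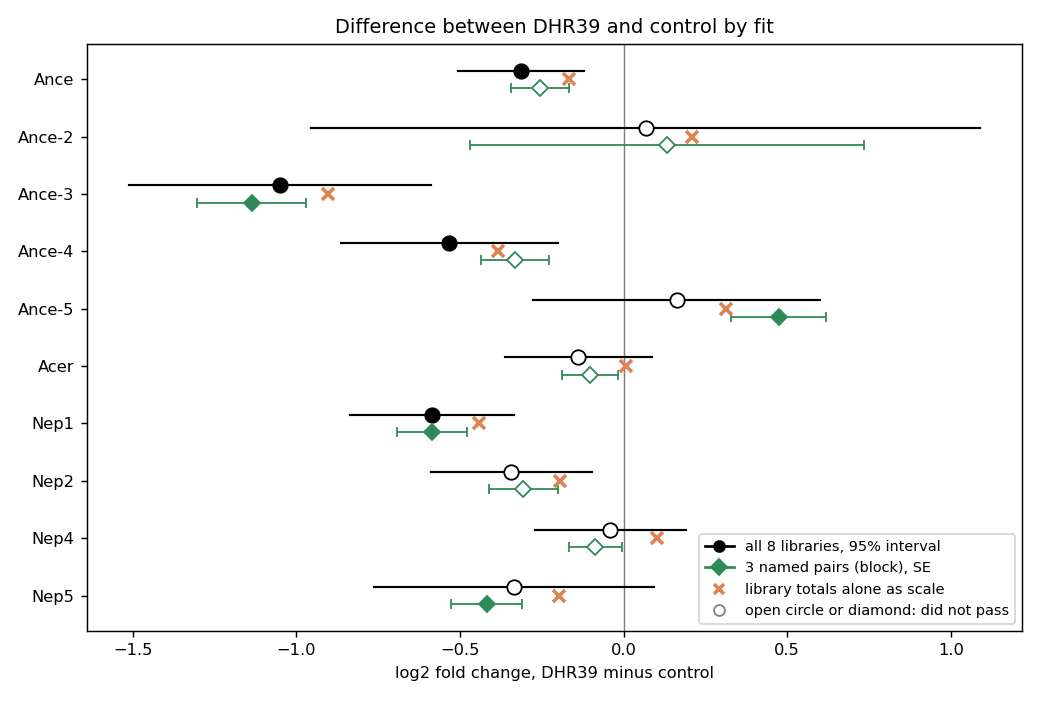
Log2 fold change of each gene, DHR39 minus control. Circles show the fit over all 8 libraries with 95% intervals, diamonds the fit within the 3 named pairs with SE, and crosses the value with library totals alone as the scale, drawn without error or call; filled circles and diamonds passed at an adjusted p below 0.05. Ance-3 and Nep1 are filled in both fits, Ance and Ance-4 in the first alone, and Ance-5 and Nep5 in the second alone.

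The sample sheet gives each DHR39 library the replicate name of 1 control library. The log2 ratio of DHR39 replicate 1 to control replicate 3, of DHR39 replicate 2 to control replicate 4 and of DHR39 replicate 3 to control replicate 5 was below 0 in all 3 pairs for Ance, Ance-3, Ance-4, Nep1, Nep2 and Nep5. For Ance-3 the 3 log2 ratios were -0.52, -1.34 and -1.56. Those of Nep1 were closer together, at -0.73, -0.38 and -0.65. The ratios of Ance ran from -0.43 to -0.11 and those of Ance-4 from -0.61 to -0.12. DHR39 replicate 3 gave the lowest ratio for Ance, Ance-3, Ance-4 and Nep2, and DHR39 replicate 1 for Nep1 and Nep5. Ance-5 went the other way, with log2 ratios of 0.92, 0.50 and 0.01. In the block fit, 3 of the 10 genes fell and 1 rose, against 11.2% and 7.9% of all genes.

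**Figure D3:**
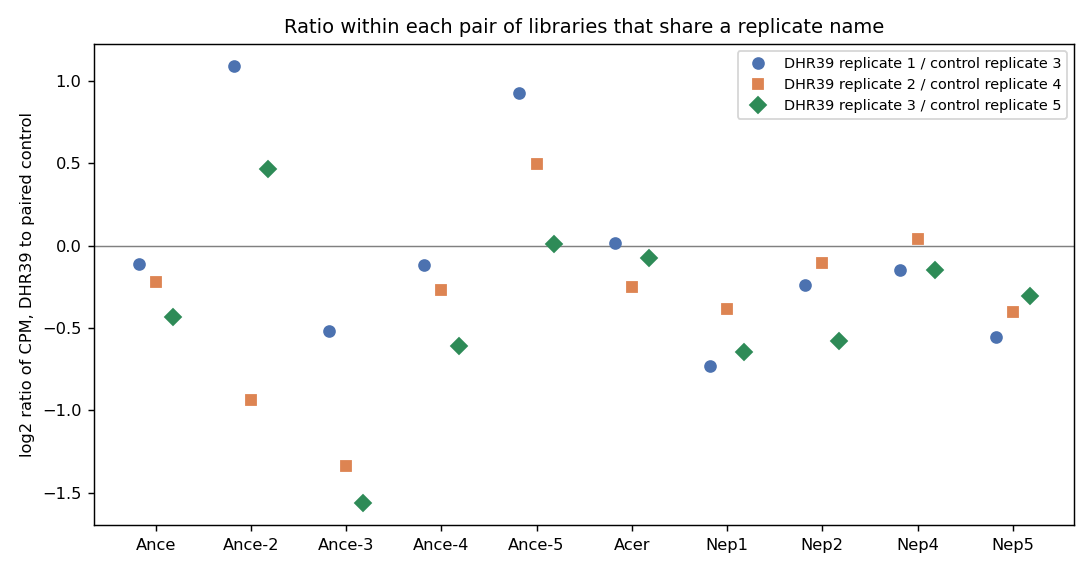
Log2 ratio of CPM between each DHR39 library and the control library that carries the same replicate name, with 1 point per pair and a line at 0 for no difference. All 3 points are below 0 for Ance, Ance-3, Ance-4, Nep1, Nep2 and Nep5 and above 0 for Ance-5.

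Ance, Ance-2 and Ance-3 lie in a row on 2L, on the same strand, 7.3 Mb from Hr39. Acyp, the gene of an acylphosphatase, stands between Ance-2 and Ance-3, and the introns of Ance-3 hold CG42711, Vajk1, Vajk2 and Vajk3 on the opposite strand, which share no base with its exons. Of the 7 other genes from Smg5, before Ance, to NimA, after Ance-3, 1 fell and 1 rose in the fit over all libraries. The rest did not pass, and of all genes 10.7% fell and 6.58% rose. Acyp stood at 25.3 ± 1.99 CPM in controls and fell to 17.3 ± 2.99 CPM, a log2 change of -0.55 ± 0.12 (edgeR adjusted p = 0.00790). CG42711, inside Ance-3, went up from 7.99 ± 1.17 to 17.7 ± 2.88 CPM, a log2 change of 1.14 ± 0.15 (edgeR adjusted p = 0.000202). Thus 1 neighbour in this stretch was called in each direction, with Ance and Ance-3 lower and Ance-2 not measurable between them. On arm 2L as a whole 23.6% of genes tested were called, and 15.8% on the other arms together; a part of the position near Hr39 in the calls of Ance and Ance-3 was not tested.

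**Figure D4:**
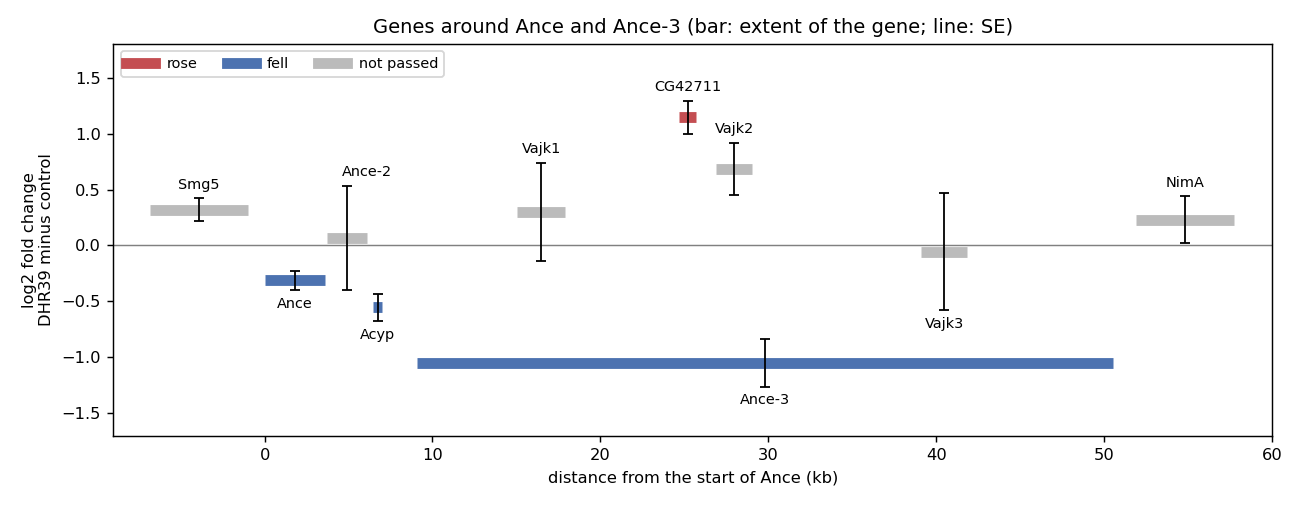
Log2 fold change (DHR39 minus control) of the genes around Ance and Ance-3, drawn at their place relative to the start of Ance in kilobases. Thick bars span each gene, thin lines give the SE, and colours mark genes that rose, fell or did not pass. Ance, Acyp and Ance-3 are below 0 and CG42711, within the span of Ance-3, is above it.

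Over all 10 genes, 26 other annotated genes were next to or overlapped one of them, and 22 of these were tested. Besides Acyp and CG42711, 1 more fell and 1 more rose. That made 2 of the 22 lower and 2 higher, where 10.7% of all genes fell and 6.58% rose. Sgp (listed as CG13091), which ends 123 bases before Acer on the same strand, had 812 ± 165 CPM in controls and 279 ± 91.3 CPM in DHR39, a log2 change of -1.54 ± 0.21 (edgeR adjusted p = 0.000343). Acer itself, as given above, did not pass. Cpr92F, a cuticle protein gene beside Nep4, rose from 0.225 ± 0.119 to 0.807 ± 0.225 CPM, a few reads per library (edgeR adjusted p = 0.0179, with the call lost in the block fit at 0.110, without DHR39 replicate 3 at 0.102 and without control replicates 1 and 2 at 0.0831).

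The remaining genes of the M13 family were taken from a list of 22, of which 20 were tested. Of these 3 rose, 1 fell and 16 did not pass, with a median log2 fold change of -0.01. Over all genes tested 6.58% rose and 10.7% fell. Nepl17 (listed as CG14529) rose from 3.83 ± 1.21 to 8.60 ± 1.79 CPM, more than any other of the list that passed (edgeR adjusted p = 0.00594). Nepl9 (CG13283) rose from 15.8 ± 2.75 to 24.6 ± 3.09 CPM, by 0.64 ± 0.14 (0.00835). These 2 passed under all 19 alternatives. Nepl4 (CG9505) rose from 10.9 ± 4.00 to 18.7 ± 2.12 CPM (edgeR adjusted p = 0.0422), under 12 of 19 alternatives. The call of Nepl4 ended in the robust fit and without control replicate 1, 4 or 5 or DHR39 replicate 1, 2 or 3, left out singly, with an adjusted p of up to 0.140.

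Nep6 (CG3775) had 112 ± 9.75 CPM in controls and fell by 0.35 ± 0.09 to 88.2 ± 6.10 CPM (edgeR adjusted p = 0.0258), under 11 of 19 alternatives. The call of Nep6 ended on the other scales by library totals, without control replicate 1, 4 or 5 or DHR39 replicate 1 or 3, left out singly, and without control replicates 1 and 2, with an adjusted p of up to 0.144. The neprilysin-like genes of highest CPM that did not pass were Nepl11 (CG9780), at 136 ± 30.3 and 125 ± 23.7 CPM, and Nepl21 (CG14526), at 128 ± 26.8 and 116 ± 7.75 CPM. Nepl17 is the first of 5 neighbouring genes, Nepl17 to Nepl21, at 28872905 to 28886015 of 3R, and the other 4 did not pass. Within named pairs 6 of the 20 rose and 1 fell, where 7.9% of all genes rose and 11.2% fell. With library totals alone 5 rose and none fell, where 14.8% of all genes rose and 7.7% fell. Thus 3 of the 4 calls on this list were higher, while the 1 call among Nep1, Nep2, Nep4 and Nep5 was lower; the difference between the lists was not tested.

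Precursors of regulatory peptides, some of them known or candidate substrates of neprilysins and angiotensin converting enzymes, made a list of 28 tested genes. Of these 8 fell, none rose and 20 did not pass, where 10.7% of all genes fell and 6.58% rose. A log2 fold change below 0 was found for 24 of the 28, and for 6866 of all 13506 genes tested. The median of the 28 was -0.32. No precursor rose at an unadjusted p below 0.05, in DESeq2 or in limma voom. Dsk, the precursor of the satiety peptides called sulfakinins, had 14.9 ± 1.26 CPM in controls and 6.99 ± 0.580 CPM in DHR39, a fall by 1.09 ± 0.12 (edgeR adjusted p = 5.61e-05). FMRFa, whose peptides act on muscle, fell from 16.4 ± 1.96 to 8.20 ± 0.744 CPM (0.000253), and Capa, whose peptides act on Malpighian tubules, from 16.01 ± 2.22 to 8.71 ± 0.730 CPM (0.000827). AstC, an allatostatin precursor, fell from 33.6 ± 5.00 to 21.2 ± 1.58 CPM (0.00350). These 4 passed under all 19 alternatives. The other precursors that fell were Ms, CCHa2, Tk and Hug, and Hug missed the threshold in the block fit (edgeR adjusted p = 0.0794).

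Tk, the precursor of the tachykinins that neprilysins cut, had 24.4 ± 2.97 CPM in controls and 18.1 ± 0.442 CPM in DHR39, with a log2 change of -0.43 ± 0.11 (edgeR adjusted p = 0.0196). The precursors of highest CPM that did not pass were ITP, at 61.9 ± 2.81 and 55.8 ± 5.56 CPM, and Nplp1, at 52.1 ± 5.60 and 46.4 ± 4.59 CPM. The count of precursors that fell was 12 in the block fit, 9 without control replicates 1 and 2, and 6 with library totals alone. Of all genes, 11.2%, 8.75% and 7.7% fell in these fits. The neuronal markers elav, nSyb and brp summed to between 374 and 455 CPM in controls and between 337 and 411 CPM in DHR39. None of these markers passed the test. The part of cell numbers in the lower precursors was not tested.

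Of 12 enzymes that mature peptides or break them down in other ways, none passed, in edgeR, DESeq2 or limma voom; 2 were lower and none higher at an unadjusted p below 0.05. With library totals alone 1 rose, where 14.8% of all genes rose. DppIII, a dipeptidyl peptidase, was at 374 ± 16.9 and 343 ± 9.21 CPM, and svr, a carboxypeptidase, at 220 ± 8.29 and 202 ± 6.40 CPM.

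**Figure D5:**
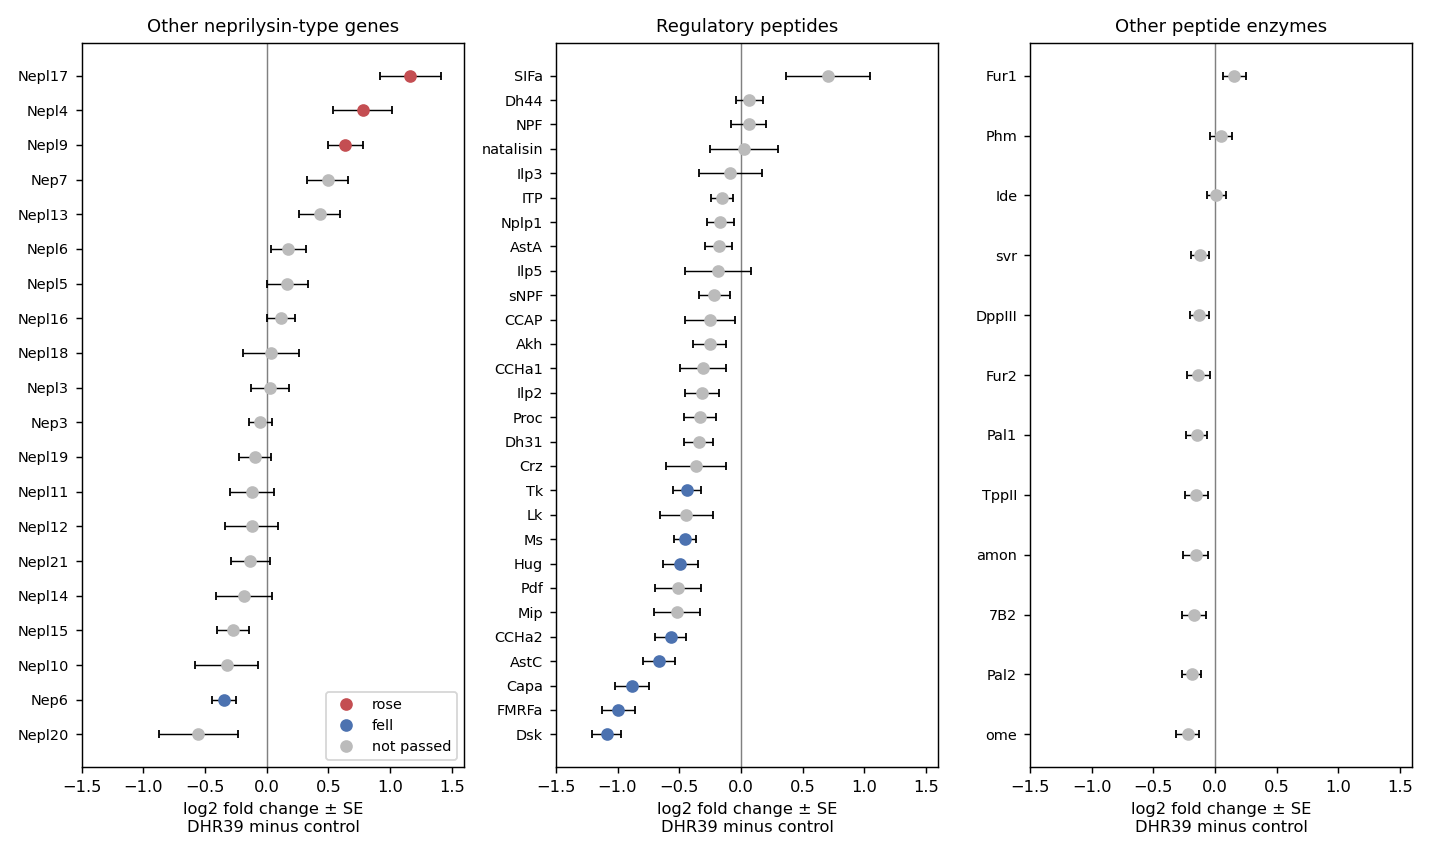
Log2 fold change (DHR39 minus control, ± SE) of the other neprilysin-type genes, of precursors of regulatory peptides and of other peptide enzymes, ordered by value within each panel. Coloured points rose or fell at an adjusted p below 0.05: 3 rose and 1 fell in the first panel, 8 fell in the second and none passed in the third.

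Markers of tissues known to make these peptidases are given as summed CPM over each list. Accessory gland secondary cells are a known source of Ance. Their 4 markers summed to 132 to 148 CPM in controls and 134 to 157 CPM in DHR39. Of these, Abd-B fell from 31.2 ± 2.04 to 22.3 ± 0.647 CPM. Dad, dve and Rab19 did not pass and made up the rest of the sum. In whole flies the source tissue of these reads is not known. The 9 markers of accessory gland main cells summed to 4330 to 8349 CPM in controls and 1119 to 1528 CPM in DHR39; 8 fell and 1 rose. Ejaculatory duct and bulb markers were also lower, at 4616 to 8746 and 2732 to 2879 CPM, with 3 of 5 fallen. The top of that control range was control replicate 2, with 4799 CPM of Ebp and 1822 CPM of EbpII. In the other controls these were at most 2095 and 826 CPM. Within named pairs EbpII fell as well (log2 fold change -0.75, edgeR adjusted p = 0.00172, against 0.0809 over all libraries). The part of these tissues in the lower Ance was not tested. The 7 testis and spermatid markers that could be measured summed to 3937 to 5288 CPM in controls and 4105 to 4739 CPM in DHR39, and none of them passed the test.

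For tissues that make Nep4, the muscle markers summed to 4451 to 5199 CPM in controls and 3509 to 3586 CPM in DHR39, where 1 of 4, Mhc, fell. Within named pairs Mlc2 fell too (log2 fold change -0.33, edgeR adjusted p = 0.0349, against 0.0629 over all libraries). The glial markers overlapped between the groups. Malpighian tubule markers, which bear on Nep2, summed to 275 to 321 CPM in controls and 359 to 392 CPM in DHR39, and of 4 markers 2 rose and 1 fell. The higher sum came mainly from Uro, which rose from 89.3 ± 20.8 to 196 ± 15.1 CPM. CG3285 rose by 0.45 on the log2 scale. Irk3 fell from 71.9 ± 5.20 to 53.1 ± 0.520 CPM. Best2 did not pass, at 119 ± 4.54 and 104 ± 2.08 CPM, though its groups did not overlap. These markers thus did not move in a single direction. No marker of these lists was at 0 in all libraries. Testis somatic cell markers, which bear on Nep2 as well, were between 40.5 and 48.2 CPM in controls and between 35.2 and 43.8 CPM in DHR39. The part of these tissues in the values of Nep2 and Nep4 was not tested. Yolk protein and vitelline membrane markers of females summed to at most 16.8 CPM, against at least 584 CPM for the male RNAs roX1 and roX2, in every library.

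The genes whose level followed each of the 3 clearest calls most closely over the 8 libraries were found by Pearson's r of log2(CPM + 1) among 11908 genes. These r values describe libraries that share the difference between the groups, and they carry no test. Nep1 was followed by CG34026 (r = 0.981), CG7882 (0.980) and Cad87A (0.977). CG34026 and CG7882 fell, and Cad87A did not pass. Ance-3 was followed by CG9121 (r = 0.962), Nhe2 (0.955) and Wdr33 (0.950), of which CG9121 fell, though not without DHR39 replicate 3 (edgeR adjusted p = 0.0596). Ance was followed by Alp12, listed as CG16771 (r = 0.989), CG10602 (0.972) and KCNQ (0.972), and all of these fell. The calls of Alp12 and CG10602 held under 10 and 11 of 19 alternatives, with an adjusted p of up to 0.221 and 0.223.

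The targeted gene Hr39 was still transcribed in the mutant, at 27.0 ± 2.89 CPM against 36.2 ± 2.38 CPM (log2 fold change -0.42 ± 0.10, edgeR adjusted p = 0.0119, and 0.0593 with library totals alone, 0.0515 without DHR39 replicate 1 and 0.0508 without DHR39 replicate 2). Total counts were 16072497 to 19935574 per library and did not separate the groups (two-sided exact permutation p = 0.518). The authors' deposited table for DHR39 lists 5 of the 10 genes as lower and none as higher. In the authors' deposited table the log2 fold changes are -0.31 for Ance, -0.86 for Ance-3, -0.50 for Ance-4, -0.56 for Nep1 and -0.33 for Nep2. Nep2 is the gene on which the authors' deposited table (adjusted p = 0.0119) and the edgeR fit given above differ.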

How the data were processed

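The members and the gene lists were chosen with earlier results of these data known. The submitters' processing notes name featureCounts 1.6.3, STAR 2.6.1b, cutadapt 1.16 and DESeq2 (1.20.0 and 1.22.2), with BDGP6 and dm6 as builds. Libraries were stranded and paired-end, per the labels' protocols; strand use in counting is not stated there. All values start from raw counts per gene, deposited by the authors. The authors' deposited comparison table gives a log2 fold change, a p-value raw and adjusted, a test score and a mean scaled signal. The deposited sample sheet gives genotypes, replicate names and a size factor, the ratio used to scale each library.

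Genes were filtered with filterByExpr (13506 of 14865 kept), scaled by TMM and tested with edgeR 4.0.16 quasi-likelihood in R 4.3.3, two-sided, adjusted over all genes. The biological coefficient of variation was 14.9%, and 10.8% with the named pairs as a block. An SE is the log2 fold change divided by the square root of F. CPM use TMM-scaled library sizes, and a floor of 3 counts covers counting error only. Positions and exon lengths came from the Ensembl annotation of BDGP6. Alternatives were other scalings and filters, DESeq2 1.42.0, limma 3.58.1 voom, a robust fit, a block and leaving out libraries. The procedure was tested on simulated data. Genes named were the 10 members, Hr39 and called neighbours. Of each longer list, the 4 called genes with the smallest p and the 2 uncalled genes of highest CPM were named. The precursors Ms, CCHa2, Tk and Hug were named after their values were seen. So were the markers Abd-B, Dad, dve, Rab19, Mhc, Ebp, EbpII, Mlc2, Uro, CG3285, Irk3 and Best2.

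Replicate numbers follow accession order and pair nothing. Names in the sample sheet pair 3 libraries of each group: deviations from group means correlated within these pairs at 0.266, 0.145 and 0.250 over 13506 genes, all above 0.1, so the names were taken as pairs. Of the other combinations, 3 also exceeded 0.1, up to 0.143. The margin was narrow.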

Additional observations from a re-analysis of the deposited data

Results flagged for a closer look

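Among 38 sets of 5 control values examined, 2 held a library far from the other 4, and chance alone flags about 5% of such sets. Control replicate 3 had the lowest value of Nep6 (CG3775) among controls, at 95.3 CPM against 113 CPM for the next. Without that library the log2 fold change of Nep6 was -0.40 (edgeR adjusted p = 0.00519). Control replicate 3 also had the highest value of DppIII, at 404 CPM against 369 CPM for the next, and without it DppIII was at -0.10 (edgeR adjusted p = 0.415). None of the 10 peptidase genes described above had such a library.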

How the results depend on the processing

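Of 186 values for the 10 genes under the alternatives, 156 kept sign and call, 17 lost a call, 6 gained one and 7 changed sign; the cause was not tested except where stated. With library totals alone the log2 fold changes were -0.17 for Ance (adjusted p = 0.189), -0.38 for Ance-4 (0.0749), 0.0082 for Acer and 0.10 for Nep4, 2 of the 10 genes were called, all lower, and 1997 genes of the table were called higher and 1040 lower; this scale puts the median of all genes at 0.14, and relative to that median Ance was at -0.31, as in the reported fit. With totals without the 50 most abundant genes they were -0.22 for Ance (0.109), -0.43 for Ance-4 (0.0547) and 0.054 for Nep4, with 2 of the 10 called, both lower, and 1479 genes of the table called higher and 1132 lower. The replicate block gave -0.26 for Ance (0.0723), -0.33 for Ance-4 (0.0519), 0.47 for Ance-5 (0.0474) and -0.42 for Nep5 (0.0227), so 1 of the 10 was called higher; no other call of the 10 genes changed under the block. Nep2 was called with DESeq2 (-0.34, adjusted p = 0.0329) and the robust fit (-0.34, 0.0495). Without control replicates 1 and 2 together, an alternative added after seeing the data, 2 of the 10 were called, with Ance at -0.26 (0.103) and Ance-4 at -0.34 (0.113). Leaving out 1 library at a time, 2 to 5 of the 10 genes were called, all lower; of the table, 1013 to 1458 genes were called lower and 553 to 955 higher, with both lowest counts without DHR39 replicate 3. The log2 fold change then ran from -0.35 to -0.26 for Ance, from -0.23 to 0.27 for Ance-2, from -0.62 to -0.44 for Ance-4 and from -0.42 to -0.28 for Nep2; Ance-3 (-1.24 to -0.86) and Nep1 (-0.64 to -0.48) kept their calls. Of 531 values for other genes named by rule, 481 kept sign and call. Signs turned with library totals alone for Nepl11 (CG9780, 0.031), Nepl21 (CG14526, 0.017), DppIII (0.016) and svr (0.022), under the block for Nepl11 (0.099) and Nepl21 (0.074), and without control replicates 1 and 2 for Nepl11 (0.10) and Nepl21 (0.058); leaving out 1 library at a time, Nepl11 ran from -0.24 to 0.025. Coding length was taken from the annotation in place of RefSeq proteins, which were not used here. At this depth Ance-2, with 5 to 12 reads per library, allows no statement on a change.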
